A study of Mus musculus with 4 samples.

Results

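Imprinted genes are transcribed mainly from one parental copy, which is marked by DNA methylation laid down in the egg or the sperm. Many of them act on growth: paternally expressed genes often promote it and maternally expressed genes often restrain it, although single genes depart from that rule. In embryonic fibroblasts several belong to a network of growth genes that is active before birth and is turned down in most tissues afterwards.

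A set of 9 such genes was followed here through every array probe that carries their name: Plagl1, Peg3, Peg10, Mest, Dlk1, Ndn, Grb10, H19 and Meg3. The rule was that a probe be outside the array's controls and be named for one of these genes. It gave 16 of 40628 gene probes, for 9 of 29353 genes. The genes were picked with earlier results of these data known. The arrays measured total RNA of C3H10T1/2, a mouse embryo fibroblast line, after chemical transformation. The compared groups were transformed cells exposed to 2 mM phorone (phorone, 2 arrays) and transformed cells labelled control (control, 2 arrays). As background, phorone, an unsaturated ketone, depletes cells of glutathione. Cells of both groups had first been transformed with 2.5 µg/ml of the carcinogen 3-methylcholanthrene (3MC) for 2 days, a rest of 4 days, the tumour promoter TPA at 100 ng/ml over 2 weeks, and 4 weeks in plain medium. How long the cells were exposed, and in which vehicle, is not given in the sources used here. The labels also leave unsaid whether the arrays of a group stem from separate cultures, so p-values rest on a spread between samples that may be technical only.

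Signals are given on a log2 scale on which each array's 75th percentile is 0, so that 0 is a probe at that percentile, and a level is comparable between arrays for one probe but not between probes. The 75th percentile lay at a processed signal of 563 and 572 on the phorone arrays and at 701 and 747 on the control arrays. On each array 51.1% to 52.7% of the spots exceeded background clearly by the scanner software's test, called well above background here, and none was saturated. The lowest value called well above background was -4.79 and -4.55 on the phorone arrays and -4.82 and -4.80 on the control arrays. On the slide each group filled a row of its own, and an effect of the row cannot be told apart from that of phorone. Of the 10 fibroblast markers 9 were well above background on all 4 arrays, and 7 of the 10 were lower with phorone, a call that 21.3% of all 17033 tested genes received. Among the 7, Fap was above background on the control arrays alone and was kept for the test through them. Another probe of Thy1, also among the 7, was at 0.255 and not called. Col1a1, not called on its brightest probe, had its other probes called lower. The summed linear signal of the 10 markers, in units of the 75th percentile, was 523 and 555 in phorone cells and 974 and 1014 in control cells.

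The probes are 60-base oligonucleotides with deposited sequences, and which transcripts these sequences match was not examined. Those shown are the ones that gave a signal above background in at least one group, since the results turn on them. The probe of the noncoding RNA H19 is given whole, and the first 30 bases of each of the others, whose place in the transcript was not examined. All letters are lower case because no base is singled out.
Plagl1 probe 1, chromosome 10: tgcccagtatatatctcctaacctttgatg
Plagl1 probe 2, chromosome 10: cttgttagcttactctgtagtttcttcttc
Grb10 probe 1, chromosome 11: tttctaaatgacgactccgtgtaaccacct
Grb10 probe 2, chromosome 11: ggcttcaagtactaatgaacaacgatatta
Grb10 probe 3, chromosome 11: aagattaaaaacttccagatcttaccttgc
Ndn, chromosome 7: tcaacaaccgtatgcccatgacaggcctcc
H19, chromosome 7: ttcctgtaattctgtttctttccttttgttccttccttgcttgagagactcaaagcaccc
Peg10, chromosome 6: ttagatcacataggataagttagatcaaat

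Of the 16 probes, 6 were well above background on all 4 arrays and 8 were so on none. The 6 belonged to Plagl1 (1 probe), Grb10 (3 probes), Ndn and H19. The second Plagl1 probe was above background only in control cells and the Peg10 probe only in phorone cells. A probe was tested if both arrays of at least one group were well above background, which kept 8 probes of 5 genes. A probe kept through one group alone differed in detection by that rule, which favours a difference in its fold change. The plot of every probe on every array shows these classes side by side.

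**Figure D1:**
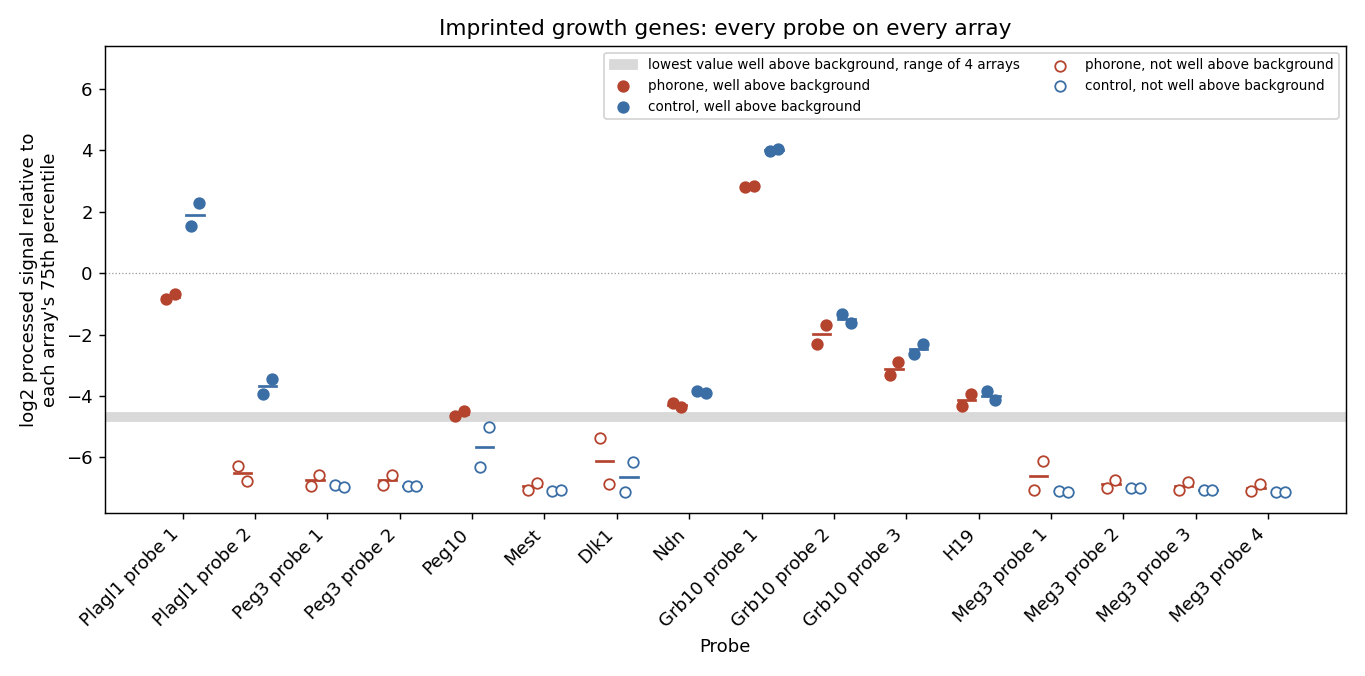
Log2 processed signal relative to each array's 75th percentile (vertical axis) for the 16 probes (horizontal axis), with phorone arrays in red left of control arrays in blue, n = 2 arrays each. Filled points were well above background, open points were not, short lines are group means and the grey band spans the lowest values well above background; the first Plagl1 probe and the first Grb10 probe lie lower in phorone cells, and the probes of Peg3, Mest, Dlk1 and Meg3 are open throughout.

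Across all 24207 gene probes kept by that filter, limma called 45.8%, made up of 20.3% lower and 25.5% higher with phorone at a Benjamini-Hochberg adjusted p below 0.05, so that a call was common on these arrays. Against this background, 3 member probes were called lower, 2 of Plagl1 and 1 of Grb10, of which the second Plagl1 probe entered the fit through the control arrays alone, and none was called higher by limma (0 also at an unadjusted p below 0.05). With the 75th percentile taken over detected probes, 5 were called lower, the third Grb10 probe and Ndn being added. Spike-in scaling moved the median of all probes to 0.54, with 4453 called higher and 1611 lower in place of 6168 and 4919. The median log2 fold change over all tested probes was 0.11. The interval plot shows the 8 tested probes together.

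**Figure D2:**
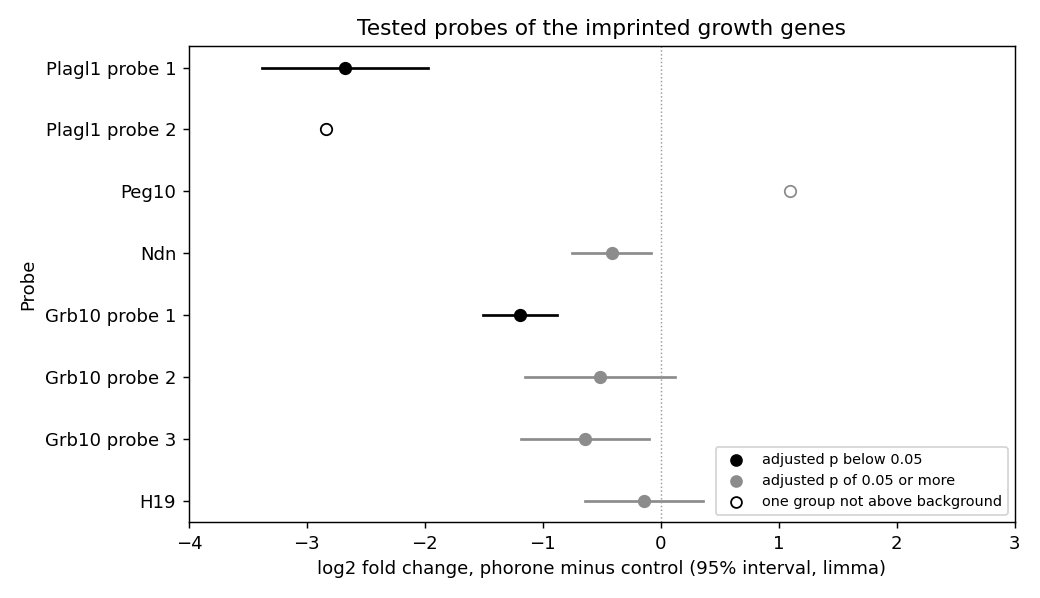
Log2 fold change, phorone minus control (horizontal axis), with its 95% interval from limma for the 8 tested probes (vertical axis), n = 2 arrays a group. Black probes, both of Plagl1 and the first of Grb10, passed the adjusted threshold and lie left of 0, and grey ones did not pass it; open points (Plagl1 probe 2, Peg10) had one group not above background, so their place rests on background values and no interval is drawn.

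Plagl1 changed most among the members with a signal on all arrays. It encodes a zinc finger transcription factor, also called Zac1, that is paternally expressed, restrains cell division in cultured cells and is known in mouse to regulate other imprinted genes. Its first probe read -0.84 and -0.69 in phorone cells and 1.52 and 2.30 in control cells. Both phorone arrays lay below both control arrays, and the control arrays differed from each other more than the phorone arrays did. The means were -0.77 ± 0.11 in phorone cells and 1.91 ± 0.55 in control cells (SD, n = 2 each), and the log2 fold change was -2.68 (SE 0.28, adjusted p = 0.00233 by limma). This is 6.39-fold lower with phorone, with a 95% interval of 3.92 to 10.4. In scanner units before scaling, the same spots read 314 and 355 in phorone cells and 2015 and 3677 in control cells. The change ranked 567th from the most lowered of the 24207 probes.

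The second Plagl1 probe read -6.27 and -6.78 in phorone cells, where neither array was well above background, and -3.94 and -3.43 in control cells, where both were. Its groups did not overlap either, and the higher control array was the same one for both probes. Because one group has only a bound, the difference is given as at least 1.98-fold lower in phorone cells (limma adjusted p = 0.00164), from the control mean over the lowest value well above background on each phorone array. One phorone value was a surrogate, and since the probe entered the fit through the control arrays alone, that p is no support of its own. The fitted log2 difference, which rests on background values, was between -3.09 and -0.42 over the alternatives, with -0.42 under normexp background correction. Both probes read the RNA of the same arrays and are not replicates of each other. In bulk RNA, fewer cells that express Plagl1 and less Plagl1 RNA per cell cannot be told apart.

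Grb10 encodes an adaptor protein that binds the insulin and insulin-like growth factor receptors and inhibits their signalling; it is maternally expressed in most tissues and paternally expressed in neurons. Its first probe read 2.81 and 2.85 in phorone cells and 3.99 and 4.06 in control cells. The groups were far apart relative to their spread, with means of 2.83 ± 0.03 in phorone cells and 4.02 ± 0.05 in control cells (SD, n = 2 each). The log2 fold change was -1.19 (SE 0.12, adjusted p = 0.00234 by limma), or 2.28-fold lower with phorone, with a 95% interval of 1.83 to 2.84. This call was lost when the arrays were scaled on spike-in probes, where the log2 fold change was -0.76 (limma adjusted p = 0.206).

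The other Grb10 probes did not pass the threshold over all kept probes. The third probe read -3.33 and -2.88 in phorone cells and -2.63 and -2.29 in control cells, with both phorone arrays lower. Its log2 fold change was -0.64 (SE 0.21, adjusted p = 0.0589 by limma), and it was called lower in 4 of 15 alternatives, such as among probes well above background on all 4 arrays (limma adjusted p = 0.0354) and with median scaling (limma adjusted p = 0.0378). The second probe read -2.30 and -1.68 in phorone cells and -1.32 and -1.63 in control cells. One phorone array lay below both control arrays and the other just below them, so the groups were adjacent, and the log2 fold change was -0.52 (SE 0.25, adjusted p = 0.148 by limma). The 95% intervals of all 3 Grb10 probes overlap, from -1.51 to -0.88 for the first, -1.15 to 0.12 for the second and -1.19 to -0.10 for the third. The 3 probes differ in sequence, and which isoforms each one reads was not examined.

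Ndn encodes necdin, a member of the MAGE protein family that is paternally expressed and holds back cell division in neurons. Its probe read -4.22 and -4.36 in phorone cells and -3.84 and -3.91 in control cells. All 4 values lay above the background limit by less than 1 unit, and both phorone arrays were lower than both control arrays. The log2 fold change was -0.42 (SE 0.13, adjusted p = 0.0510 by limma), just short of the threshold. With one probe a gene in the fit, the adjusted p was 0.0479 and Ndn was called lower, as it was among probes well above background on all 4 arrays (limma adjusted p = 0.0400). The value turned positive with normexp background correction (0.023) and with spike-in scaling (0.018), so that its direction depended on the processing.

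H19 is a maternally expressed noncoding RNA that neighbours the growth factor gene Igf2 and shares its control region. Its gene probe read -4.32 and -3.93 in phorone cells and -3.84 and -4.13 in control cells. The groups overlapped, and the log2 fold change of -0.14 (SE 0.20, 95% interval -0.64 to 0.36, limma adjusted p = 0.583) did not pass. The array also holds an H19 probe in its set for noncoding transcripts, outside the rule. That probe read -1.81 and -1.91 in phorone cells and -2.27 and -2.03 in control cells. There both phorone arrays were the higher ones, with a log2 fold change of 0.28 (SE 0.15). Its adjusted p was 0.192 by limma in the alternative fit that held the noncoding probes. Neither probe gave a call, and their signs differed.

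Peg10 is a paternally expressed gene derived from a retrotransposon and is needed for the placenta in mouse. Its probe read -4.66 and -4.49 in phorone cells, at the background limit, and -6.31 and -5.01 in control cells, where neither array was well above background. After scaling both phorone arrays were the higher ones, and the phorone mean was at least 1.18-fold higher than the background limit in control cells. The control arrays differed from each other more than the phorone arrays did. In scanner units before scaling, the Peg10 spots read 22.3 and 25.5 in phorone cells and 8.81 and 23.1 in control cells, so the groups overlapped there. The difference did not pass (limma adjusted p = 0.0921). Its fitted log2 value, which rests on background values in control cells, was 1.09 (SE 0.43). It was called higher when the second control array was left out, at 1.74 (limma adjusted p = 0.00918), and it was 0.44 without the first control array and not called.

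The remaining members were not well above background on any array and were not tested. Peg3 encodes a paternally expressed zinc finger protein, Mest an enzyme-like protein of the embryonic mesoderm, Dlk1 a membrane protein related to Notch ligands that holds preadipocytes undifferentiated, and Meg3 a maternally expressed noncoding RNA next to Dlk1. The Dlk1 probe read -5.35 and -6.86 in phorone cells and -7.13 and -6.14 in control cells, the widest spread within groups of any of these probes. The Mest probe read -7.05 and -6.82 in phorone cells and -7.08 and -7.06 in control cells. The other probes of these genes lay in the same low range. The 2 Peg3 probes read between -6.92 and -6.56 in phorone cells and between -6.95 and -6.91 in control cells, and the 4 Meg3 probes between -7.10 and -6.12 in phorone cells and between -7.13 and -6.99 in control cells. A probe named Gtl2, an older name of Meg3, was also below background on all arrays.

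Several of these low values were not measurements of their own. Where a spot is very dim the scanner software writes a surrogate value in its place, whose median was -7.05 and -6.79 on the phorone arrays and -7.06 and -7.06 on the control arrays. The probes of Peg3 and Mest and 3 of the 4 Meg3 probes held surrogates on all 4 arrays. The first Meg3 probe held them on 3 arrays and the Dlk1 probe on 2, one in each group. The second Plagl1 probe held one on 1 phorone array, and the probes of Peg10, Ndn, Grb10 and H19 held none. No direction can be read for genes below background in both groups.

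The plot of processing choices sets the called members beside Peg10. The first Plagl1 probe was called lower in all 16 alternatives, with log2 fold changes between -3.06 and -2.24. The first Grb10 probe was called lower in 15 of 16, between -1.25 and -0.76. Peg10, with its control value resting on background, had a positive value in all 15 alternatives that gave one and was called higher in 4 of them.

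**Figure D3:**
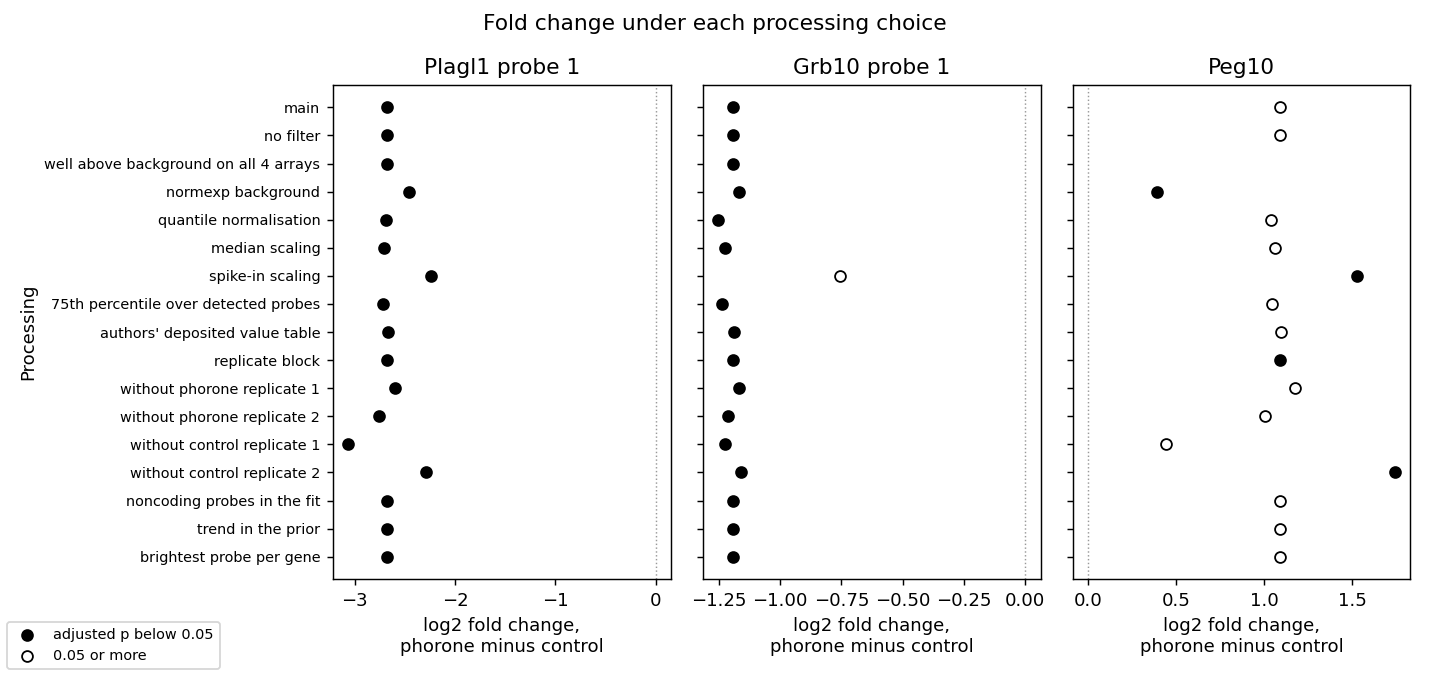
Log2 fold change, phorone minus control (horizontal axes, one scale per panel), of the first Plagl1 probe, the first Grb10 probe and the Peg10 probe under each processing choice (vertical axis). Filled points have an adjusted p below 0.05; Plagl1 is filled throughout, Grb10 is open under spike-in scaling only, and Peg10 is filled in 4 alternatives.

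Genes whose pattern over the 4 arrays lay nearest to that of Plagl1 and Grb10 were found by the Euclidean distance of log2 values, each gene centred on its own mean. Nearest to Plagl1 were Lrrn4 (distance 0.0735), Plau (0.120) and Cdhr1 (0.182). Plau, which encodes urokinase, a secreted protease, and Lrrn4 were below background on the phorone arrays, so their distances rest partly on background values. Cdhr1, a cadherin-related gene, had a log2 fold change of -2.65. Nearest to Grb10 were Gm13305 and Dock11 (distance 0.0288 each) and Gpr39 (0.0302), with log2 fold changes of -1.19, -1.20 and -1.20. With 4 arrays in 2 groups such a distance mostly reflects the size of the difference between groups.

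The members lie in imprinted domains, and the other genes of those domains were read from the same fit with one probe, the brightest, for each gene. Across all 17033 genes, 21.3% were lower and 24.3% higher with phorone, and the members called lower were Plagl1, Grb10 and Ndn. Next to Grb10, Cobl, which encodes an actin nucleator, was called the other way. It read -1.23 and -0.77 in phorone cells and -2.02 and -2.47 in control cells, a log2 fold change of 1.25 (SE 0.23, adjusted p = 0.0116 by limma). Ddc, also beside Grb10, was below background throughout.

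The Peg3 domain was silent at the level of detection of these arrays: Peg3, Usp29, Zim1 and Zim2 were 4 of 4 genes with no probe above background. In the domain of Dlk1 and Meg3, 5 of 6 genes were below background on every probe, and the noncoding RNA gene Mirg had a log2 fold change of -0.22 (limma adjusted p = 0.361). In the domain of Peg10, Sgce, a sarcoglycan gene, was detected on all arrays and had a log2 fold change of -0.38 (limma adjusted p = 0.0596). The paraoxonase genes of that domain split. Pon3 was lower by a log2 fold change of -0.99 and Pon2 higher by 0.57, both called (the other Pon2 probe, at 0.37, was not), while Pon1 was below background. Beside Mest, the coat protein gene Copg2 was called lower at -0.55, but its other probes, at 0.39 and -0.36, were not called.

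In the domain that holds Ndn, on chromosome 7, the transcripts Magel2, Snrpn and Snurf were below background on every probe. Mkrn3, a ubiquitin ligase gene, read -0.07 and 0.04 in phorone cells and -0.60 and -0.75 in control cells. Both phorone arrays were higher, with a log2 fold change of 0.66 (SE 0.13, adjusted p = 0.0136 by limma), and its other probe, at 0.29, was not called. Beside H19, the growth factor gene Igf2 was below background in phorone cells and at least 3.09-fold lower there. Its brightest probe entered the fit through the control arrays alone. A second probe was also called lower, but it was not well above background on all 4 arrays either, so its call is no support of its own. The H19 gene probe, read from the same arrays, had the interval of -0.64 to 0.36 given above.

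A wider list held 71 other imprinted genes, of which 67 had a probe and 38 were tested, as 29 were not well above background on both arrays of either group. Of the 38, 15 were lower and 6 higher with phorone, 55.3% in all beside 45.5% over all genes. Over all genes 21.3% were lower and 24.3% higher. The median log2 fold change of the 38 was -0.29 beside 0.08. Among the 15, Igf2, Phlda2 and Qpct entered the fit through the control arrays alone. Among probes well above background on all 4 arrays, 14 of the list's genes were lower and 7 higher. Without the first or the second phorone array 9 were lower and 3 or 2 higher, with no filter 7 lower and 3 higher, and with spike-in scaling 7 lower and 4 higher. The list's lowered genes included the matrix proteoglycan gene Dcn, which read 0.77 and 0.84 in phorone cells and 5.33 and 5.33 in control cells, a log2 fold change of -4.52 (SE 0.12, adjusted p = 0.000186 by limma). Qpct, an enzyme that modifies peptide ends, and Phlda2, a placental growth restrainer, were both below background in phorone cells, where they were at least 3.18-fold and 2.29-fold lower.

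In the Kcnq1 domain next to Igf2, 9 of 12 genes were tested and 4 were called lower, a call that 21.3% of all genes received. Among the 4, Phlda2 entered the fit through the control arrays alone. The transporter gene Slc22a18 had a log2 fold change of -2.43 (its other probe, at -0.40, was not called), and the tetraspanin gene Tspan32 one of -2.01. The other Tspan32 probe, at -2.44, was called, but it was not well above background on all 4 arrays and is no support of its own. The growth inhibitor gene Cdkn1c, a known target of Plagl1 in mouse, was below background on all arrays. Igf2r, the receptor that clears Igf2, averaged 3.21 in phorone cells and 4.04 in control cells (n = 2 each), with no overlap, and was called lower at -0.84. Airn, the noncoding RNA that starts inside Igf2r, was called lower at -1.60, with 2 of its other 3 probes called as well.

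In the wider list of other imprinted genes, those called higher were Cobl, Blcap, Zrsr1, Ampd3, Mkrn3 and Pon2. The arrays did not tell parental copies apart, so whether the listed genes were imprinted in these cells was not measured. Blcap, a growth-related gene that hosts Nnat in its intron, read 5.41 and 5.39 in phorone cells and 4.53 and 4.16 in control cells, a log2 fold change of 1.06 (SE 0.16), and its other probe was called at 1.36. Nnat was below background on all arrays. Zrsr1, which lies inside an intron of Commd1, had a log2 fold change of 0.94, while Commd1 had one of -0.64 and both of its other probes were called lower. Ampd3, an adenosine monophosphate deaminase gene, had one of 0.83. The ranked plot of the list shows its called genes at both ends.

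**Figure D4:**
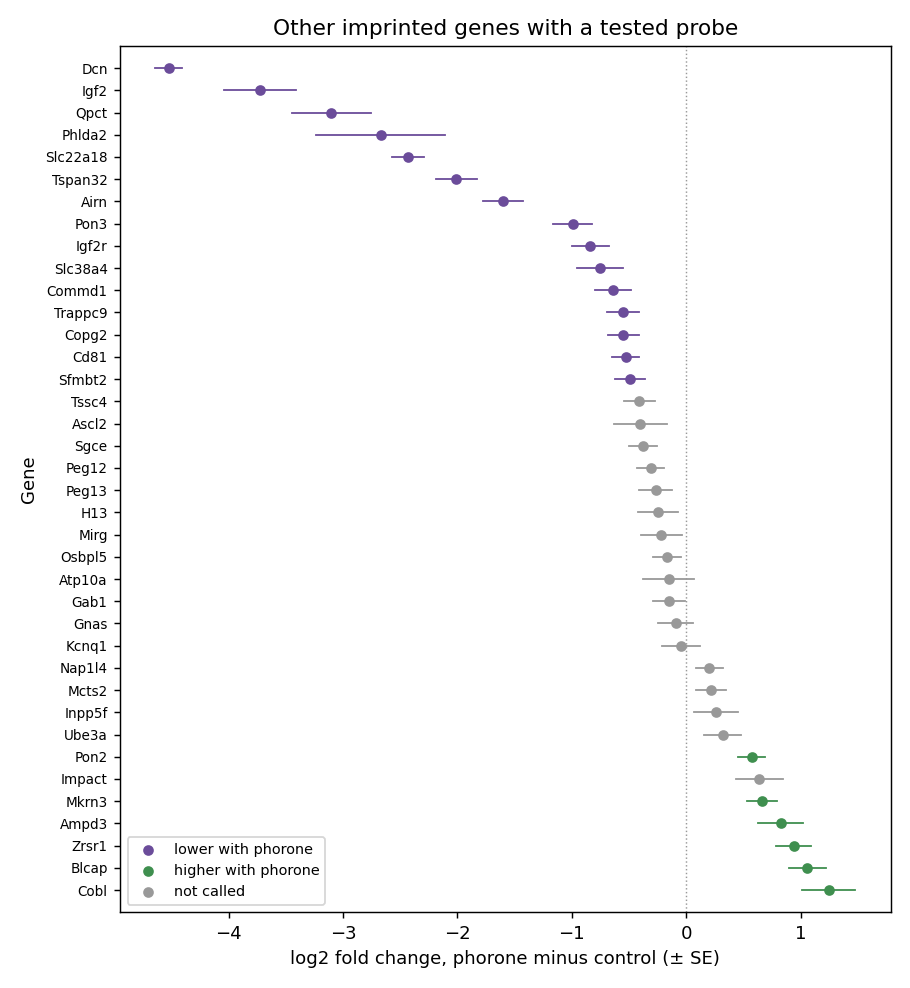
Log2 fold change, phorone minus control, with its standard error (horizontal axis) for the 38 tested genes among the other imprinted genes (vertical axis), each on its brightest probe, n = 2 arrays a group. Called genes are purple where lower (15) and green where higher (6), from Dcn at -4.52 to Cobl at 1.25. Among the 15, Igf2, Qpct and Phlda2 were kept through the control arrays alone. Their places and standard errors rest on background values in phorone cells.

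Of 20 genes that set or keep imprints, 17 were tested, with 3 called higher and 3 lower, 35.3% in all beside 45.5% over all genes, and a median log2 fold change of 0.06 beside 0.08. Dnmt3l, the cofactor of de novo methylation in germ cells, read -0.93 and -1.07 in phorone cells and -4.01 and -3.32 in control cells, a log2 fold change of 2.67 (SE 0.25, adjusted p = 0.00184 by limma). Smchd1, a chromatin protein, rose by 0.76, and Dnmt1, the maintenance methyltransferase, rose by 0.65. The 5-methylcytosine oxidases Tet1, Tet2 and Tet3 were called lower at -0.75, -0.63 and -0.43, while the other tested probes of Tet2, at -0.51, and Tet3, at -0.23, were not called. Dnmt3a, a de novo methyltransferase, was not called on its brightest probe, at -0.30, and 1 of its other 2 probes was called higher at 1.58. Without either phorone array 1 of the regulators was called higher. The 3 lowered calls were lost without either phorone array, without the second control array, with no filter and with spike-in scaling. Zfp57, which protects imprints, had an outlier-flagged spot and was not tested.

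Among 14 binding partners and pathway genes of the members, 12 were tested and 6 were lower with phorone, 50% beside 21.3% lower over all genes and 45.5% called either way, with a median log2 fold change of -0.54 beside 0.08. On the brightest probes none was higher by limma (0 at an unadjusted p below 0.05). Notch2, at -0.24 and not called on its brightest probe, had both other probes called higher, at 1.55 and 0.82, so its probes disagree. Notch1, whose signalling Dlk1 is known to modify, read -3.03 and -3.22 in phorone cells and -1.13 and -1.39 in control cells, a log2 fold change of -1.86 (SE 0.15, adjusted p = 0.00134 by limma). Irs1, the docking protein of the receptors that Grb10 binds, had a log2 fold change of -1.39, and its other probe, at -1.31, was called too. The insulin receptor gene Insr was called at -0.90, but its other probe, at 0.01, was not. The number of lowered genes was 3 without either phorone array and with no filter, and 1 with spike-in scaling.

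Markers of other cell types were read beside these changes. All 4 pluripotent cell markers, 3 of 4 endothelial and 3 of 5 epithelial ones were above background on no array. The remaining endothelial marker, Tek, was above background on the control arrays alone and at least 1.68-fold lower in phorone cells. Of the remaining epithelial ones, Krt8 was not called and Epcam was above background on 1 control array only. The macrophage genes Ptprc and Adgre1 were dark on all arrays, while Cd68 was called higher at 1.26. Csf1r, well above background on only 1 control array, was at 1.33 and not called (limma adjusted p = 0.116). The summed linear signal of the macrophage markers was 0.498 and 0.687 in phorone cells and 0.230 and 0.279 in control cells, and it came mostly from Cd68. That of the muscle markers was 1.39 and 1.91 in phorone cells and 6.17 and 7.23 in control cells, and that of the adipocyte markers 6.89 and 7.65 in phorone cells and 12.9 and 11.3 in control cells. The muscle sum came mostly from Des and Acta1, as Myod1 and Myog were above background on no array. The adipocyte sum came mostly from Fabp4 and Lpl, as Adipoq and Plin1 were above background on no array. The part of the fibroblast, muscle and adipocyte markers in the lower signals of Plagl1 and Grb10 was not tested.

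Promoters of the members were read from RefSeq (GRCm38.p6), which gave 11 promoters for 7 of the 9 genes, each from 250 bases before to 50 after a transcript start. Those of the 2 genes called lower by the probe fit are shown, with CpG dinucleotides, the sites of DNA methylation, in capitals and without the 50 bases after the start.
Plagl1, chr10:13090582-13090831, plus strand: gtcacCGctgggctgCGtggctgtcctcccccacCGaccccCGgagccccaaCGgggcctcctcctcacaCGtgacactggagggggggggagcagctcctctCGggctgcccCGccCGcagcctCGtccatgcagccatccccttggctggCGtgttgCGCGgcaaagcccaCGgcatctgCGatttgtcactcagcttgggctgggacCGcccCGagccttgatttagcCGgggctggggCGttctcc
Grb10 start 1, chr11:12037421-12037670, minus strand: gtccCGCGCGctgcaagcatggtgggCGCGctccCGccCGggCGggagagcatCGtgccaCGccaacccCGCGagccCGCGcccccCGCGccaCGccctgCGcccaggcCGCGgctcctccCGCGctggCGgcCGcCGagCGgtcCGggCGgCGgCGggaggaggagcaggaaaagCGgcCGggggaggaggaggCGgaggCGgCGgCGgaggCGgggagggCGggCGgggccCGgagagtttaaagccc
Grb10 start 2, chr11:12027972-12028221, minus strand: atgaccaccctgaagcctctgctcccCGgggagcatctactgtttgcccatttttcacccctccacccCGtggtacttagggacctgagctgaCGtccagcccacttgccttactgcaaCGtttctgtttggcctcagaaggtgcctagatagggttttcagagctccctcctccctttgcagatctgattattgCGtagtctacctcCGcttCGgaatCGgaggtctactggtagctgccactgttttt

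The full window of 300 bases held 26 CpG dinucleotides at Plagl1, more than 83.1% of the 32851 promoters in the table, whose median was 7. The Grb10 starts differed, with 45 CpG dinucleotides at the first (more than 98.1% of promoters) and 9 at the second (more than 54.2%). Motifs were searched on both strands, and matches could overlap each other. TGCCGC, the motif bound by ZFP57, was found in 5 of the 11 member promoters and in 11.6% of all promoters. It holds a CpG, so it is more frequent where CpG dinucleotides are dense. It occurred once at Plagl1 and once at the first Grb10 start, and 2 of the other 3 were overlapping windows of Mest. GGGGCCCC, a form of the PLAGL1 motif, was found in 1 member promoter, that of Peg3, and in 1.08% of all. TGACNNNGC, the core of the antioxidant response element, was found in none of the 11 and in 12.4% of all, and GCCATNTT, bound by YY1, in none and in 6.05% of all. These are matches of letters, and binding and methylation were not measured.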

How the data were processed

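Members and gene lists were chosen with earlier results of these data known. Agilent Feature Extraction 10.7.3.1 made the intensity values, per the file headers, with Cy3 as the only dye; the processed signal is detrended and holds surrogates at dim spots. On each array the subtracted surface was the software's spatial detrending surface, not the local background. The authors' deposited table holds log2 values: each column differed from log2 of the processed signal by a constant near its array's log2 75th percentile (SD of the difference at most 0.0223), with column medians of -4.37 and -4.30 (phorone) and -4.39 and -4.35 (control).

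Groups and replicate numbers came from the sample titles. Of the gene probes, 69.3% matched a RefSeq transcript and took its gene symbol, except that members kept the array's name. The remaining probes kept the array's name too, and genes were counted by these names. From the processed signal, log2 values minus each array's 75th percentile over probes outside the controls were taken, flagged spots left out and spots of a probe averaged. A probe was kept where both arrays of a group, or of both groups, were well above background (24207 of 40628; a separate 20679 probes for noncoding transcripts stayed out). The comparison used limma 3.58.1 (R 4.3.3, two-sided, 2 residual and 3.08 prior degrees of freedom) and p-values adjusted by Benjamini-Hochberg over all kept probes, or over 17033 genes on their brightest kept probe for the lists and domains. A probe dark in a whole group has only a bound, set on each dim array at the higher of its own value and the lowest value well above background. The fit was also run on simulated data. Far fewer probes changed there than were called here, so that run is no support for the calls. Arrays give no depth, and their number limits the precision. Imprinted domains were written from textbook knowledge after the data had been seen. Named genes followed a rule: every member probe, the 6 largest called changes each way among other imprinted genes, 3 each way in the other lists and the 3 nearest patterns of 2 members; domain neighbours, the genes beside them and markers were named outside it, with their values seen. Replicate numbers did not pair the samples by the correlation of their deviations (-0.04 over 24207 probes). Alternatives changed the filter, background, scaling, source table, block, replicates and probes in the fit.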

Additional observations from a re-analysis of the deposited data

How the results depend on the processing

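Leaving out 1 array (the lone array is assumed to vary like the other group) gave 0 to 1 member probes called higher and 3 lower throughout. The one higher call was Peg10 without the second control array, with normexp, with spike-in scaling and with the replicate block. With the 75th percentile taken over detected probes, 5 member probes were called lower in place of 3. H19 changed sign, to 0.047 with normexp and 0.29 with spike-in scaling, and ranged from -0.34 to 0.056 with 1 array left out, positive without the first phorone or the first control array; Ndn changed sign to 0.023 with normexp and 0.018 with spike-in scaling. Leaving out 1 array gave 3311 to 5518 probes higher and 3277 to 4828 lower among all gene probes, in place of 6168 and 4919; without the first phorone array 4031 were higher, and without the second 3311 were higher and 3277 lower. It gave 2 to 7 higher and 9 to 12 lower among other imprinted genes, in place of 6 and 15, and 1 to 4 higher and 0 to 2 lower among imprint regulators, in place of 3 and 3. Among binding partners it gave 0 higher and 3 to 7 lower, in place of 0 and 6. With no filter, 3823 probes were called higher, and the lists gave 3 higher and 7 lower (other imprinted genes), 0 lower (regulators) and 3 lower (partners). Spike-in scaling, on 7 spike-in probes, moved the median of all probes to 0.54 and gave 4453 probes higher and 1611 lower. It gave 7 lower other imprinted genes, 0 lower regulators and 1 lower partner. Regulators were lower in 1 case each with normexp, the replicate block, noncoding probes in the fit and probes averaged per gene, and such averages called 1 partner higher. The replicate block, which is also the slide column, gave 5253 probes higher and 4501 lower; it also called the third Grb10 probe lower (limma adjusted p = 0.0309). No label ties same-numbered samples to a shared culture, and their deviations did not correlate, so the block is not read as a pairing. The cause of these shifts was not tested. Probes near the background limit, those of Ndn, H19 and Peg10, have little signal over background.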
